A study of Rattus norvegicus with 13 samples.

Results

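The imprinted interval from H19 and Igf2 to Kcnq1 of rat chromosome 1 was taken by position as all 1500 windows of 1 kb in chr1:215500001-217000000 of the build Rnor_6.0, of 2782040 windows in the deposited tables and 282764 on chromosome 1. No signal value was used to choose them. The assay was MeDIP-seq, in which an antibody against 5-methylcytosine pulls down DNA fragments before sequencing, so that a window gains reads the more methylated it is and the more methylatable sites it has. The 13 libraries came from outbred Hsd:Sprague Dawley rats. The control lineage gave 3 libraries of morula embryos and 3 of sperm, and the DDT lineage gave 3 and 4. In the DDT lineage, gestating F0 females had received daily intraperitoneal injections of the insecticide DDT from embryonic day 8 to 14, and in the control lineage the vehicle dimethyl sulfoxide. Only the F0 generation was treated. Sperm came from the cauda epididymis of F3 males, and animals were aged to 1 year before analysis. Morulae were made by intracytoplasmic injection of such sperm (ICSI) into eggs of superovulated Sprague Dawley donors, were cultured in vitro and were pooled. Each embryo pool therefore mixes cells and both parental copies of a region, and a partial signal in 1 copy or in some cells cannot be told apart. No label says that replicates came from separate animals, so p-values measure the spread between these libraries, which may in part be technical.

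Genomic imprinting is the expression of a gene from only the maternal or only the paternal copy, set by methylation laid down in the germ line. This interval holds 2 neighbouring imprinted domains. At the first, the control region upstream of H19 is methylated on the paternal copy in sperm and stays unmethylated on the maternal copy, where it binds the insulator protein CTCF. Igf2, a fetal growth factor, is then expressed from the paternal copy and the noncoding RNA H19 from the maternal copy. At the second, a control region inside Kcnq1 is methylated in the egg. The noncoding RNA Kcnq1ot1 that starts there silences neighbouring genes on the paternal copy, among them Cdkn1c, an inhibitor of the cell cycle, and Phlda2, which limits growth of the placenta. These control regions are known to keep their methylation after fertilisation, when most sperm methylation is lost before the blastocyst forms.

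The RefSeq annotation of the assembly GRCr8 gives the order of the named genes as Mrpl23, H19, Igf2, Ins2, Th, Ascl2, Tspan32, Cd81, Tssc4, Trpm5, Kcnq1, Cdkn1c, Slc22a18, Phlda2, Nap1l4, Cars1, Tnfrsf26, Tnfrsf22 and Osbpl5. Its coordinates are not those of Rnor_6.0, so windows below are given by position and are not assigned to a gene or to a control region. Promoters of 300 bases (250 before and 50 after the start) matched 9 of the 13 genes listed as imprinted, and H19, Kcnq1ot1, Kcnq1 and Cdkn1c were not matched. They differed widely in CpG, the dinucleotide that carries methylation and that the assay depends on, from 3 to 23 per promoter, against a median of 7 over all 33469 RefSeq promoters. The 3 promoters below, with each CpG in capitals, show that range, with the growth factor gene first.

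Igf2, GRCr8 chr1:207253931-207254230, minus strand: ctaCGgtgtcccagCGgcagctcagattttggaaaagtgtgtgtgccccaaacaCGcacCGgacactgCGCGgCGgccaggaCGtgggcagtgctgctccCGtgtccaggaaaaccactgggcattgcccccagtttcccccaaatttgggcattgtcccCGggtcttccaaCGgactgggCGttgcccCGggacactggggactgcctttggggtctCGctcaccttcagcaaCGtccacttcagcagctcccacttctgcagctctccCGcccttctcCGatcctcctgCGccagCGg

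Phlda2, GRCr8 chr1:208127192-208127491, minus strand: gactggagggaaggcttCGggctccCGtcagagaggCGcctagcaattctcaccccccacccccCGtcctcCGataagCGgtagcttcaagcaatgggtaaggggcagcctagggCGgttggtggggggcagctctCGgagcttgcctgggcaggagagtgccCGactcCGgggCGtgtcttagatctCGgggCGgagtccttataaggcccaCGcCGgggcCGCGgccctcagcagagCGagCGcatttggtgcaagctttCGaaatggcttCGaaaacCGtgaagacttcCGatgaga

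Osbpl5, GRCr8 chr1:208345780-208346079, minus strand: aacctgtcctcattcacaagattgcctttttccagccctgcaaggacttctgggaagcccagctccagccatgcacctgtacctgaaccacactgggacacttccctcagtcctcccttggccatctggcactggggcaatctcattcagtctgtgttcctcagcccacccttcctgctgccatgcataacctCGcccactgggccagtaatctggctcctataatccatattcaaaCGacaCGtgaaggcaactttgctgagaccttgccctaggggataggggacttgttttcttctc

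This Igf2 promoter holds 19 CpG, a second one holds 7, the Phlda2 promoter holds 23 and that of Osbpl5, a lipid transfer protein, holds 3. Both strands were searched for GGNGGCAG, the end of the CTCF consensus, and for TGCCGC, the motif of the imprint-keeping protein ZFP57; the motifs can overlap, since TGCCGC reads GCGGCA on the other strand and GGNGGCAG with C at N contains it. GGNGGCAG was found in 4 of the 10 listed promoters and in 11.6% of all promoters, and TGCCGC in 1 of 10 (the Igf2 promoter above) and in 11.7% of all.

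The libraries differed in depth and in how unevenly they covered the interval. Total counts ranged from 30386626 to 193750804, of which 15283 to 112725 fell in the interval, and the median count per window ranged from 5 to 56. Counts below are given as CPM, a library's counts scaled to a common total. A floor of 3 counts corresponds to 0.0155 CPM at the greatest depth and 0.0987 CPM at the least. Control sperm replicate 3 and DDT sperm replicate 4, with 30386626 and 33684143 counts, stood apart from the other 5 sperm libraries. In them 13.1% and 10% of the interval's windows were empty, where the other sperm libraries had 1.53% to 2.67% and morulae 1.8% to 2.4% of windows empty. They placed 47.1% and 46.3% of the interval's counts in its top 10% of windows, while the remaining sperm libraries placed 32.1% to 37.4% there. Correlations of log2 CPM over the 1500 windows, which are not independent and share each library's depth, were 0.855 for this pair, 0.723 to 0.793 when either was set against the remaining sperm libraries, and 0.892 to 0.953 within the latter. Within morulae they were 0.63 to 0.754, and from morula to sperm, the pair left out, 0.523 to 0.684. In all, 18 windows had no count in any library, 6 of them in a row at chr1:216035001-216041000 and 6 at chr1:216416001-216422000.

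The summed signal of the interval was similar in the 6 morula libraries and varied in sperm. Control morula replicates 1 to 3 had 522, 535.9 and 522.1 CPM in the whole interval, and DDT morula replicates 1 to 3 had 505.4, 531.4 and 517.9 CPM. Control sperm had 583, 581.8 and 503 CPM, and DDT sperm 648.1, 658.4, 656.2 and 526.9 CPM, the last of each being the library that stands apart. Outside those 2 libraries every sperm library lay above every morula library, and every DDT sperm library above both control sperm libraries.

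**Figure D1:**
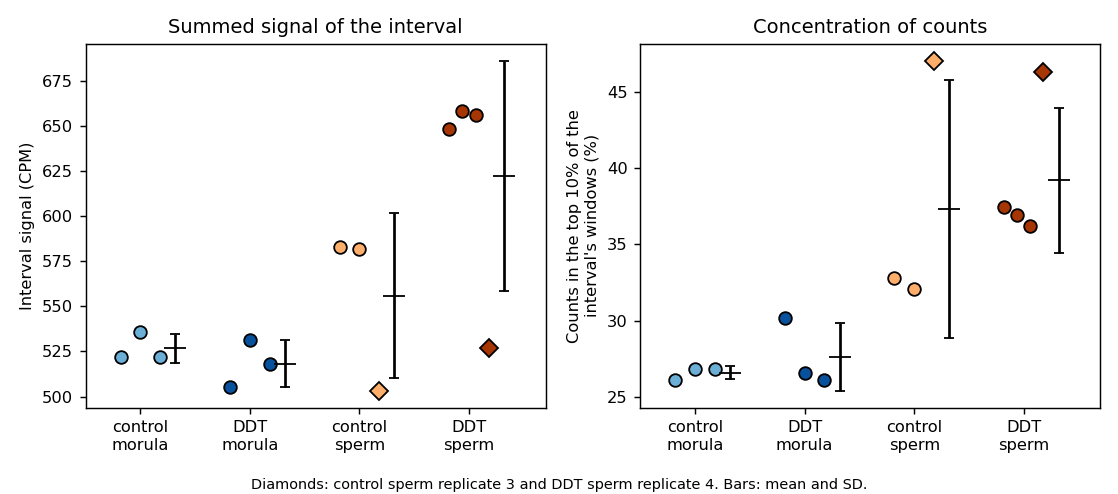
Summed signal of the interval in CPM (left, axis not starting at 0) and percent of its counts in its top 10% of windows (right), 1 point per library by group, with mean and SD. Diamonds are control sperm replicate 3 (503 CPM) and DDT sperm replicate 4 (526.9 CPM), which lie below the other sperm libraries on the left and above them on the right.

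Over all libraries the group means were 526.6 ± 8 CPM (SD, n = 3) in control morulae, 518.2 ± 13 (n = 3) in DDT morulae, 555.9 ± 45.9 (n = 3) for sperm of the control lineage and 622.4 ± 63.9 (n = 4) for that of the DDT lineage. None of the 4 differences passed a two-sided exact permutation test: p was 0.4 for morula against sperm in the control lineage, 0.0857 in the DDT lineage, 0.4 for DDT against control in morulae and 0.171 in sperm (adjusted over the 4 tests 0.4, 0.343, 0.4 and 0.343). These designs cannot go below 0.1 with 3 against 3 libraries and 0.0286 with 4 against 3. With library sizes scaled by TMM the difference in the DDT lineage was -157.2 in place of -104.2 CPM (exact permutation p = 0.0286, adjusted 0.114), that in the control lineage -81.4 in place of -29.3, and that of DDT minus control in morulae 0.344 in place of -8.38. Without the 2 libraries that stand apart, control sperm had a mean of 582.4 ± 0.866 CPM (n = 2) and the DDT group 654.3 ± 5.41 CPM (n = 3), where an exact test cannot go below 0.1. The DDT difference in morulae minus that in sperm was -74.9 CPM (exact permutation p = 0.117).

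Morulae had a flatter profile along the interval than sperm. Over windows, the 90th percentile of mean morula signal was 2.77 times the 10th, with a coefficient of variation of 0.772. In sperm it was 15.4 times, with 1.11, and 14.2 times, with 1.06, without the 2 libraries that stand apart. Sperm thus held many windows with almost no signal between windows of high signal, while most morula windows lay between 0.188 and 0.519 CPM.

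In 15 bins of 100 kb the morula profile peaked at chr1:215900001-216000000. Control morulae had 52.4, 59.1 and 57.4 CPM there, DDT morulae 61.5, 55.3 and 51.7, control sperm 50.5, 50.2 and 38.9, and DDT sperm 51.5, 49.9, 49.4 and 44.4. All 6 morulae exceeded all 7 sperm libraries in this bin, but it did not pass the test in either lineage (log2 difference of morula over sperm 0.23, SE 0.11, adjusted p = 0.0939 in the control lineage, and 0.18, SE 0.08, adjusted p = 0.0598 in the DDT lineage). Here and below the test is edgeR's quasi-likelihood test over all bins or windows of the genome, and a value passes at an adjusted p under 0.05. The next bin, chr1:216000001-216100000, was higher in morulae in both lineages (log2 difference 0.25, SE 0.07, adjusted p = 0.0152, and 0.21, SE 0.06, adjusted p = 0.00762). Sperm signal peaked instead at chr1:215700001-215800000, with 57.9, 61 and 49.3 CPM in control sperm and 71.1, 72, 69.2 and 45.5 in DDT sperm, against 37.3 to 39.5 CPM in the 6 morulae. That bin had the largest difference of the interval in both lineages (log2 difference -0.60, SE 0.09, adjusted p = 0.000919, and -0.78, SE 0.14, adjusted p = 0.000654). The lowest bin in every group was chr1:216400001-216500000, at 19.4 and 19.2 CPM in control and DDT morulae and 16.5 and 15.7 CPM in control and DDT sperm. It holds 10 of the 18 windows without a count.

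**Figure D2:**
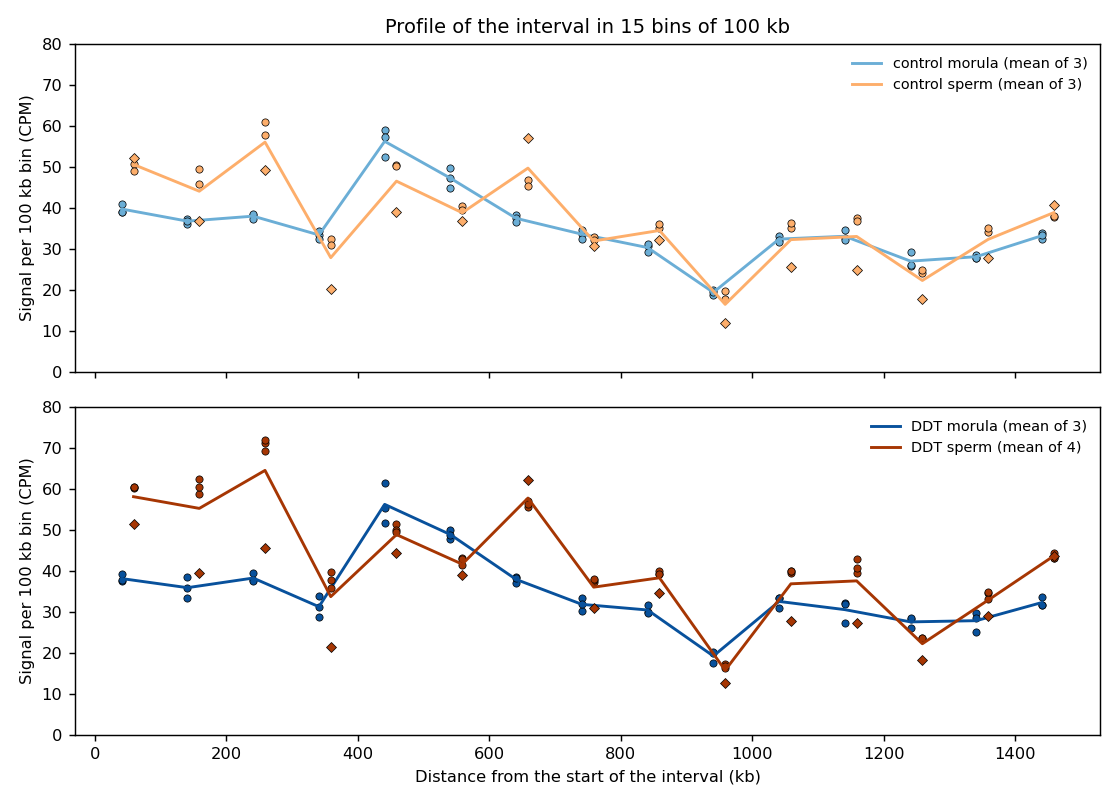
Signal in CPM per 100 kb bin against distance from the start of the interval in kb, control lineage above and DDT lineage below, with 1 point per library, lines for group means and diamonds for the 2 sperm libraries that stand apart. The means of sperm are highest in the third bin and those of morulae in the fifth.

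In the control lineage morulae exceeded sperm in 1 of the 15 bins and fell below it in 7, where 33.1% and 33.5% of all bins of the genome passed in these directions. In the DDT lineage 3 were higher and 9 lower, against 39.5% and 37.5%. The 7 lower bins of the control lineage were also lower in the DDT lineage. All 6 morulae lay above all 7 sperm libraries in 3 bins and below them in 5, where 31.6% and 29.4% of all bins were so separated.

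The control lineage compares sperm and embryo without ancestral exposure to DDT. Morulae and sperm are also separate sets of libraries that differ in depth, so effects of the assay cannot be told apart from methylation here. Of 1500 windows, 1463 could be tested, and 251 had more signal in morulae than in sperm and 158 had less. That is 17.2% and 10.8% of the tested windows of the interval, against 16.9% and 12.3% of all windows and 18.4% and 11.3% of those of chromosome 1, so the interval's shares were close to the background. The median log2 difference was 0.03 over the interval and 0.09 over all windows. The balance of directions turned without control sperm replicate 3, here and in the whole table: 283 windows of the interval (19.3%) were then higher and 382 (26.1%) lower, against 21.9% and 23.1% of all windows.

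In the DDT lineage 1423 windows could be tested, of which 203 (14.3%) were higher and 283 (19.9%) lower in morulae, against 18.3% and 16.6% of all windows and 19.7% and 15.7% of those of chromosome 1. The median log2 difference was -0.18 in the interval and -0.01 over all windows. Without DDT sperm replicate 4, 253 windows (17.5%) were higher and 365 (25.3%) lower, against 23% and 21% of all. In the authors' deposited tables, at an adjusted p under 0.05, 197 windows of the interval (14.4%) were higher and 115 (8.38%) lower in control morulae than in control sperm, where 13.8% and 10.3% of all windows were. In the authors' deposited table of the DDT lineage 110 (9.05%) were higher and 188 (15.5%) lower, against 12.9% and 12.6% of all.

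The 2 lineages share no library. Of 1422 windows tested in both, 129 passed as higher in both, 107 as lower in both and 0 with opposite calls. The first 2 counts are 9.07% and 7.52% of these windows, against 10.3% and 8.67% of all windows tested in both lineages, of which 0.00385% had opposite calls. The 129 are 51.4% of the higher windows of the control lineage and 63.5% of those of the DDT lineage, and the 107 are 67.7% and 37.8% of the lower windows. The difference had the same sign in 1159 windows, and across windows, which are not independent replicates, the log2 differences correlated at r = 0.817. Over the whole table the sign was the same in 82.6% of windows, against 81.5% here, and r was 0.824.

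**Figure D3:**
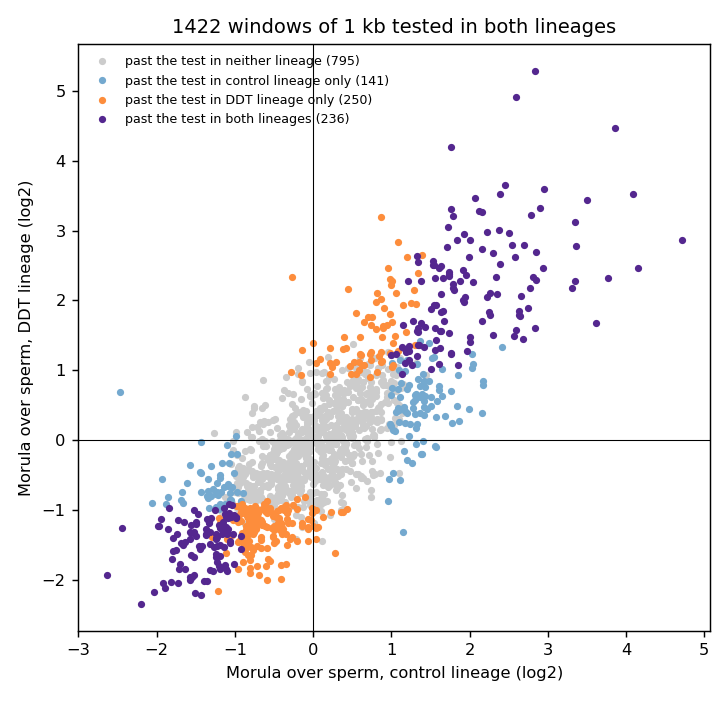
Log2 difference of morula over sperm in the control lineage (x) and in the DDT lineage (y) for the 1422 windows tested in both, 1 point per window, coloured by the lineages in which the window passed the test. The 236 windows past the test in both lineages lie in the upper right and the lower left.

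Most of the windows higher in morulae in both lineages had little signal in sperm. By the calls that chose them, the 129 had a median of 0.269 CPM in control and 0.292 CPM in DDT morulae, close to the interval's medians of 0.301 and 0.293 CPM, against 0.0557 CPM in control and 0.0545 CPM in DDT sperm. The 90th percentile of the 129 was 0.104 CPM in control and 0.1275 CPM in DDT sperm. Not all were so low, since chr1:216045001-216046000 had 0.919 and 0.795 CPM in these groups. In 114 of the 129 (88.4%), all 6 morulae lay above all 7 sperm libraries, as in 80.5% of such windows in the whole table. They were scattered, in 92 runs (a run may bridge a single window that did not pass), of which 63 were single windows and 7 held at least 3. The bin at chr1:216000001-216100000 held 18 of them and each of the 2 bins before it 14. Runs were not computed over the whole table, here or below.

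The first of the longest such runs, at chr1:215975001-215980000, where 4 of the 5 windows passed, had 0.258, 0.306 and 0.241 CPM per window in control morulae and 0.312, 0.329 and 0.25 in DDT morulae. Control sperm had 0.0608, 0.0805 and 0.0263 CPM per window and DDT sperm 0.0661, 0.0382, 0.0857 and 0.0416. Morulae were 4.8-fold higher in the control lineage and 5.13-fold in the DDT lineage, and the groups did not overlap. The runs at chr1:216024001-216029000 and chr1:216700001-216705000 had 0.206 ± 0.032 and 0.305 ± 0.07 CPM per window in control morulae (SD, n = 3) against 0.095 ± 0.0427 and 0.0621 ± 0.0328 in control sperm (n = 3). In the DDT lineage they had 0.275 ± 0.0682 and 0.283 ± 0.0276 in morulae (n = 3) against 0.0595 ± 0.0137 and 0.0621 ± 0.0164 in sperm (n = 4).

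Within the first run, the window at chr1:215978001-215979000 had the largest mean difference of the interval among windows past the test in both lineages whose groups did not overlap. It had 0.243, 0.255 and 0.164 CPM in control morulae, 0.264, 0.392 and 0.4 CPM in DDT morulae, 0, 0.0258 and 0 in control sperm, and 0.0179, 0.00954, 0.0156 and 0 in DDT sperm. That is 39 and 42 counts in the morula groups against 5 in each sperm group. All 5 control sperm counts came from replicate 2. The log2 difference was 3.86 (SE 0.66, adjusted p = 0.000852) in the control lineage, where leaving out 1 library moved it from 3.17 (control sperm replicate 1) to 6.93 (control sperm replicate 2), and 4.47 (SE 0.56, adjusted p = 1.38e-06) in the DDT lineage. Of the other windows named by this rule, that at chr1:216663001-216664000 had 46 counts in control morulae and 3 in control sperm. The ratio of the pooled counts was 32.6, with a 95% counting interval from 10.5 to 163.7, and in the DDT lineage it was 8.3 (3.87 to 19.3). Those at chr1:216751001-216752000 and chr1:216254001-216255000 had 35 and 37 counts in DDT morulae against 2 and 3 in DDT sperm, pooled ratios of 55.9 (14.4 to 479.4) and 39.4 (12.5 to 199.6). In the control lineage their pooled ratios were 7.97 (3.57 to 20.1) and 6.68 (3.59 to 13.2). The windows starting at 216255001, 216238001, 216001001 and 216859001 had log2 differences of 2.94 to 4.16 in the control and 2.47 to 3.6 in the DDT lineage.

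The windows lower in morulae were chosen by calls in which sperm exceeded morulae, and their levels are a description. The 107 had a median of 0.862 CPM in control and 0.794 CPM in DDT sperm, close to the 90th percentile of the interval's windows there (0.794 and 0.902 CPM), and 0.363 and 0.321 CPM in control and DDT morulae. All 6 morulae lay below all 7 sperm libraries in 53 of them (49.5%), as in 51.9% of such windows in the whole table. They formed 82 runs, 69 of single windows and 3 of at least 3 windows, and 21 of the 107 lay in the bin at chr1:215700001-215800000.

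One run was the longest of the interval: 11 of the 12 windows of chr1:215784001-215796000 were lower in morulae in both lineages. The other runs of the interval, in either direction, reached at most 5 kb. Whether a run of this length is unusual in the whole table was not tested. Control morulae had 0.754, 0.814 and 0.605 CPM per window over the 12 kb and DDT morulae 0.731, 0.707 and 0.612. Control sperm had 2.15, 2.33 and 1.46 CPM per window and DDT sperm 2.72, 2.69, 2.41 and 1.07, the lowest of each group being the library that stands apart. Sperm was 2.73-fold higher in the control and 3.25-fold higher in the DDT lineage, and no sperm library overlapped the morulae. The stretch took 4.21% of the interval's counts in sperm and 1.62% in morulae, and morulae kept above their typical window there, since the median window of the interval had about 0.3 CPM.

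Inside this stretch mean sperm signal was high at chr1:215785001-215786000, fell to 0.715 CPM in control and 0.829 CPM in DDT sperm at chr1:215788001-215789000, and rose again over the 5 windows of chr1:215790001-215795000, to means of 2.46 to 3.14 CPM in control and 2.62 to 3.17 CPM in DDT sperm. At chr1:215785001-215786000 control sperm had 3.42, 3.5 and 2.21 CPM and DDT sperm 4.61, 4.31, 3.65 and 2.29, while control morulae had 0.85, 1.32 and 0.859 and DDT morulae 0.819, 0.834 and 1.35. The log2 difference was -1.73 (SE 0.33, adjusted p = 0.00158) in the control and -2.04 (SE 0.31, adjusted p = 2.87e-05) in the DDT lineage. At chr1:215794001-215795000 control sperm had 3.25, 3.71 and 2.47 CPM and DDT sperm 3.75, 3.44, 2.78 and 1.78, while the 6 morulae ranged from 0.499 to 1.05 CPM. The difference was -2.03 on the log2 scale (SE 0.33, adjusted p = 0.000674) in the control and -2.17 (SE 0.32, adjusted p = 2.22e-05) in the DDT lineage. The window that did not pass in both lineages, chr1:215788001-215789000, had a log2 difference of -0.81 (adjusted p = 0.0702) in the control and -1.11 (adjusted p = 0.024) in the DDT lineage. Differences between DDT and control in these 12 windows ranged from -0.46 to 0.80 in morulae and from -0.44 to 0.45 in sperm on the log2 scale, and none passed the test.

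**Figure D4:**
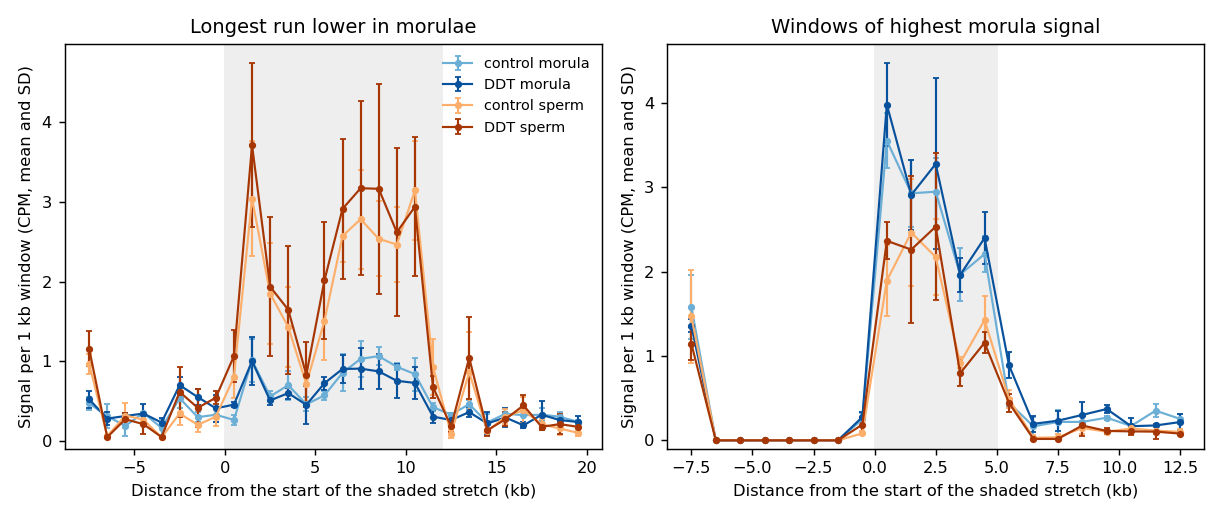
Signal in CPM per 1 kb window (group mean, bars SD) against distance in kb from the start of the shaded stretch, for the longest run lower in morulae (left) and the 5 windows around the highest morula signal (right). On the left both sperm groups lie above both morula groups through the 12 shaded kb, and on the right the 4 groups rise together next to 6 windows without a count.

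Other lower windows were single or short. The window at chr1:216185001-216186000 had the largest mean decrease: 1.73, 2.16 and 4.84 CPM in control sperm and 2.21, 2.13, 1.57 and 2.82 in DDT sperm, while control morulae had 0.592, 0.578 and 0.307 and DDT morulae 0.819, 0.564 and 0.474. The log2 difference was -2.63 (SE 0.46, adjusted p = 0.000996) in the control and -1.93 (SE 0.33, adjusted p = 0.000119) in the DDT lineage. In this window the libraries that stand apart were the highest of their groups, not the lowest. The remaining windows named by the rule, at 216923001, 215786001, 215761001, 216161001 and 216805001, had log2 differences of -1.44 to -2.2 in the control and -2.05 to -2.35 in the DDT lineage. Runs of 4 kb at chr1:216318001-216322000 and chr1:215707001-215711000 had 0.837 ± 0.22 and 0.829 ± 0.0734 CPM per window in control sperm (SD, n = 3) against 0.337 ± 0.0529 and 0.367 ± 0.0916 in control morulae (n = 3). In the DDT lineage they had 0.716 ± 0.133 and 0.907 ± 0.067 in sperm (n = 4) against 0.29 ± 0.0678 and 0.438 ± 0.0181 in morulae (n = 3).

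The 3 windows of highest morula signal lay side by side, at chr1:216042001-216045000. The first, chr1:216042001-216043000, had 3.37, 3.36 and 3.92 CPM in control and 4.52, 3.87 and 3.54 CPM in DDT morulae, above all sperm libraries, which had 1.97, 1.44 and 2.27 CPM in the control and 2.18, 2.37, 2.24 and 2.67 in the DDT lineage. The difference did not pass the test in either lineage (log2 difference 0.81, SE 0.33, adjusted p = 0.0698, and 0.63, SE 0.26, adjusted p = 0.0596). Over the 5 kb at chr1:216042001-216047000 morulae had 2.72 ± 0.253 (control, SD, n = 3) and 2.9 ± 0.469 CPM per window (DDT, n = 3) and sperm 1.78 ± 0.361 (n = 3) and 1.82 ± 0.437 (n = 4), so that this stretch was high in both. It held 2.7% of the interval's counts in morulae and 1.56% in sperm. Within it, chr1:216045001-216046000 was higher in morulae in both lineages (log2 difference 0.99, adjusted p = 0.0234, and 1.22, adjusted p = 0.00143). The stretch begins 1 kb after the 6 windows in a row without a count.

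In sperm the highest windows were chr1:216158001-216159000, then the window at 215785001 of the 12 kb run, then chr1:216289001-216290000. The first had 2.29, 1.53 and 6.71 CPM in control and 3.4, 3.62, 3.75 and 7.54 CPM in DDT sperm, and 2.04 to 2.35 CPM in the 6 morulae. Its rank rested on the 2 libraries that stand apart, and the same held for the third, at 5.26 and 5.58 CPM in those libraries and 1.67 to 2.89 CPM in the other sperm. Both were lower in morulae in the DDT lineage (log2 difference -1.23, SE 0.32, adjusted p = 0.00431, and -1.23, SE 0.33, adjusted p = 0.00515) and did not pass in the control lineage (adjusted p = 0.244 and 0.146).

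Between DDT and control morulae no window of the interval passed the test. Of 1462 tested windows 0 passed, with 71 (4.86%) at an unadjusted p under 0.05 against 4.9% of all windows, and 1 window passed in the whole table, which is 3.89e-05% of it. DESeq2 also passed 0 windows of the interval, with 27 (1.85%) at an unadjusted p under 0.05 against 1.7% of all. In 60 windows all DDT morulae lay above all control morulae, which is 4.1% of those tested, and in 99 (6.77%) below, against 4.4% and 5.65% of all windows. The 15 bins had log2 differences from -0.11 to 0.06 with standard errors of at most 0.06, and 0 passed, against 0.00719% of all bins. Single windows were measured less precisely than bins. The window of smallest p that was higher, chr1:216047001-216048000, had 0.501, 0.408 and 0.429 CPM in control and 0.74, 0.883 and 1.05 CPM in DDT morulae (log2 difference 1.01, SE 0.29, adjusted p = 0.958). The lower window of smallest p, chr1:216952001-216953000, had 0.288, 0.323 and 0.429 CPM in control and 0.0264, 0.123 and 0.0999 CPM in DDT morulae (log2 difference -1.96, SE 0.56, adjusted p = 0.958).

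In sperm the question is whether the interval differs between the lineages in generation F3. With all 7 libraries 0 of 1391 tested windows passed, and 0% of all windows did, with 97 windows (6.97%) of the interval at an unadjusted p under 0.05 against 5.92% of all. DESeq2 passed 0 of the interval, with 69 (4.96%) at an unadjusted p under 0.05 against 3.11% of all. All 4 DDT libraries lay above all 3 control libraries in 45 windows, 3.24% of those tested, and below them in 21, or 1.51%, where 2.15% and 3.63% of all windows did so. Of the 15 bins 0 passed, as did 0% of all bins. The log2 difference was above 0 in 13 of the 15 bins in sperm and in 7 in morulae. Neighbouring bins come from the same libraries and are not independent, and the share over all bins was not computed.

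The sperm result changed when the 2 libraries that stand apart, 1 of each lineage, were given a term of their own, a setting chosen after seeing the data. Then 151 windows (10.9%) were higher in DDT sperm and 24 (1.73%) lower, where 5.25% and 3.2% of all windows passed in these directions. Of the pair that stands apart, DDT replicate 4 lay above control replicate 3 in 107 of the 151. It lay below in 16 of the 24. These 2 libraries are part of the fit, and the same shares over all windows were not computed. The median log2 difference was 0.10 in the interval and -0.01 over all windows. With both libraries left out 176 windows (12.4%) were higher and 29 (2.04%) lower, against 6.4% and 4.02% of all.

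The bins showed the same direction over wide stretches. With the term, 8 of 15 bins were higher in DDT sperm and 0 lower, where 4.02% and 3.06% of all bins passed. The bin at chr1:215600001-215700000 had the largest difference, with 49.5, 46 and 36.8 CPM in control sperm and 58.6, 60.5, 62.3 and 39.4 in DDT sperm (log2 difference 0.28, SE 0.05, adjusted p = 0.0129). The bin at chr1:216100001-216200000 had 46.8, 45.3 and 57.1 CPM in control and 55.5, 57.1, 56.2 and 62 in DDT sperm (log2 difference 0.24, SE 0.04, adjusted p = 0.0129), and that at chr1:216900001-217000000 had 37.9, 38.1 and 40.7 against 43.2, 44.4, 43.2 and 43.7 (log2 difference 0.17, SE 0.04, adjusted p = 0.0199). In the last the 4 DDT libraries lay above the 3 control libraries with no library left out. DDT replicates 1 to 3 all exceeded control replicates 1 and 2 in 11 of the 15 bins, against 22.8% of all bins. DDT replicate 4 exceeded control replicate 3 in 13, against 50.7%. In the called bin at chr1:215500001-215600000 it lay below control replicate 3, at 51.3 against 52.1 CPM. The differences of the called bins ranged from 0.13 to 0.28 on the log2 scale, and the bin of highest sperm signal, at chr1:215700001-215800000, did not pass (log2 difference 0.15, SE 0.06, adjusted p = 0.133).

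**Figure D5:**
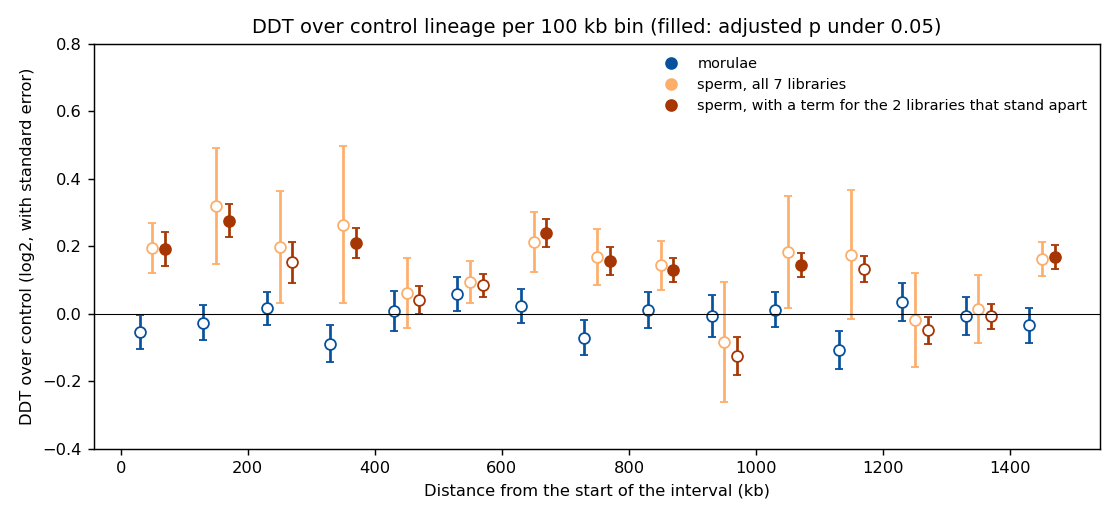
Log2 difference of DDT over control per 100 kb bin with standard error, against distance from the start of the interval in kb, in morulae, in sperm with all 7 libraries, and in sperm with a term for the 2 libraries that stand apart. Filled points (8 bins, all of the last fit) passed the test, and morula values lie between -0.11 and 0.06.

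Of the windows higher in DDT sperm with that term, 17 lay in each of the first 3 bins of the interval. The longest run covered 7 kb at chr1:215633001-215640000, with 6 windows past the test, where control sperm had 1.26, 0.983 and 0.55 CPM per window and DDT sperm 1.89, 2.05, 2.14 and 0.585. A run of 5 kb at chr1:215523001-215528000 had 1.21, 0.946 and 0.948 against 1.76, 1.73, 1.78 and 1.26 CPM per window, with all DDT above all control libraries. The window of smallest p, chr1:216242001-216243000, had 0.449, 0.356 and 0.198 CPM in control sperm and 1.39, 1.41, 1.25 and 0.237 in DDT sperm (log2 difference with the term 1.75, SE 0.20, adjusted p = 2.96e-08, and 1.68, SE 0.43, adjusted p = 0.843 without it). In morulae it had 0.911, 0.493 and 0.879 CPM in the control and 0.714, 0.539 and 0.799 CPM in the DDT lineage, with no separation of the lineages. Among the 24 lower windows the smallest p was at chr1:216062001-216063000, with 0.926, 1.06 and 0.296 CPM in control and 0.518, 0.439, 0.327 and 0.445 CPM in DDT sperm (log2 difference -1.03, SE 0.20, adjusted p = 0.000544). These windows were named after their values were seen.

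The windows higher in DDT sperm did not lean the same way in morulae. By the calls that chose them, the 151 had a median log2 difference of 0.80 in sperm with the term. All 151 were tested in morulae, where 68 had a log2 difference above 0. Their median there was -0.05, against 0.0008 over all tested windows of the interval. Whether a sperm difference was lost in morulae was not tested. Within the 12 kb run of high sperm signal 0 of the 12 windows were among the 151.

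The interaction term over all 13 libraries tests whether the DDT difference itself differed between morulae and sperm. It passed 0 of 1459 windows, as it did in 0% of all windows, with 101 of the interval (6.92%) at an unadjusted p under 0.05 against 5.68% of all. With the term for the 2 sperm libraries, 2 windows had a higher and 10 a lower difference in morulae than in sperm, 0.137% and 0.685% of those tested, where 0.0351% and 0.15% of all windows passed. The window at chr1:216113001-216114000 was first by p without that term among the positive ones. It had 0.0607, 0.085 and 0.0204 CPM in control and 0.185, 0.27 and 0.225 CPM in DDT morulae, and 0.27, 0.361 and 0.23 CPM in control and 0.116, 0.153, 0.148 and 0.0594 CPM in DDT sperm. The lineages were separated in both tissues, in opposite directions, but on few counts. Control morulae had 4, 5 and 1 counts, DDT morulae 7, 11 and 9, and DDT sperm replicate 4 had 2. Control morula replicate 3 and DDT sperm replicate 4 were thus both under the floor of 3. The interaction was 3.12 (SE 0.64, adjusted p = 0.87). The window was lower in morulae in the control lineage (log2 difference -2.47, adjusted p = 0.00202) and did not pass in the DDT lineage (0.68, adjusted p = 0.218).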

How the data were processed

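MeDIP-seq reads were processed with FastQC, Trimmomatic, Bowtie2, SAMtools and edgeR on the build Rnor_6.0, per the submitters' processing notes, which give no versions or settings. Raw read counts per 1 kb window were deposited, with the authors' edgeR log2 fold changes, p-values and adjusted p-values, which are missing for windows of low counts. The deposited RPKM values (13 columns) were not used. Here edgeR 4.0.16 (R 4.3.3) was fitted on the whole table for each of 5 comparisons, with TMM scaling, windows of at least 5 counts per library on average and Benjamini-Hochberg adjustment over all tested windows. DESeq2 1.42.0 was an alternative. A standard error is the effect divided by the square root of its F statistic. Counts were also summed over 100 kb bins and fitted alike. Summed CPM was compared by exact permutation tests. Simulated counts with known changes were passed through the fits in their main setting. They held no libraries that stand apart, so they do not check the fits with a term for those or without them. Depth limits precision: 3 counts are taken as the floor, and intervals and floors cover counting error alone, because PCR copies of a molecule cannot be recognised. Windows were named by rule: per direction the 8 of largest mean difference past the test in both lineages with no overlap of groups, the 3 longest runs, the 3 of smallest p for each DDT comparison and the interaction, and the 3 of highest signal per tissue. With no annotation of Rnor_6.0, the H19 and Kcnq1ot1 control regions, gene starts and motifs in windows were not analysed here. Sequences come from RefSeq (GRCr8). The interval, the lists and the tests were chosen with earlier results of these data known. Alternatives covered scaling (library size, DESeq2 size factors), minimum counts, thinning, an offset for abundance, a replicate block and libraries left out. A covariate for both outlying sperm libraries was added after seeing the data.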

Additional observations from a re-analysis of the deposited data

Results flagged for a closer look

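In the group of 4 DDT sperm libraries, 13 of 51 values checked had 1 library far from the others, by the gap to the nearest library over the range of the group. Chance gives about 1 in 20 for independent values. These values were not independent, since the total holds the bins and the bins hold the windows. Some windows were also named by their sperm signal, so the count cannot be set against that rate. In 9 of the 13 the lowest library was DDT sperm replicate 4, which stands apart in depth and evenness. These were the interval total, with 526.9 CPM against 648.1 in the nearest library (gap 0.922 of the range), and the bins starting at 215500001 (51.3 against 60.1 CPM, gap 0.97), 215600001 (39.4 against 58.6, gap 0.84), 215700001 (45.5 against 69.2, gap 0.897), 216200001 (30.9 against 37.2, gap 0.875), 216300001 (34.6 against 39.2, gap 0.859), 216500001 (27.6 against 39.6, gap 0.963) and 216700001 (18.4 against 23.3, gap 0.94). The window at chr1:216242001-216243000 was the other (0.237 against 1.25 CPM, gap 0.859). In 3 windows replicate 4 was the highest, at chr1:216044001-216045000 (3.83 against 2.17 CPM, gap 0.911), chr1:216043001-216044000 (3.56 against 1.89, gap 0.929) and chr1:216158001-216159000 (7.54 against 3.75, gap 0.915). At chr1:216001001-216002000 the lowest library was DDT sperm replicate 2, with 0 against 0.0536 CPM (gap 0.86).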

How the results depend on the processing

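Counts of windows moved most with the offset for abundance, with thinning and with single libraries. After thinning to the smallest library, the control lineage had 78 windows higher in morulae and 41 lower (251 and 158 as reported), and the DDT lineage 116 and 175 (203 and 283). With the offset for abundance the control lineage had 56 (3.83%) and 42 (2.87%), against 5.17% and 3.34% of all windows. The DDT lineage then had 57 (4.01%) and 82 (5.76%), against 7.19% and 4.1% of all. A minimum of 10 counts per library left 105 higher and 182 lower in the DDT lineage. DESeq2 gave 153 higher in the control lineage (10.5%, against 9.09% of all windows). Shares over all windows are not given for thinning, for the minimum of 10 counts or for most single libraries left out. Leaving out each library in turn gave 141 to 283 higher and 53 to 382 lower windows in the control lineage, 133 to 253 and 175 to 365 in the DDT lineage, and 4 to 10 bins past the test in the control lineage. The lowest values came without control morula replicate 2, control morula replicate 1 and DDT morula replicate 2, and the highest without the 2 sperm libraries that stand apart, which have low depth. Between DDT and control in sperm 205 windows passed with both of these left out and 175 with a term for them, against 0. Bins that passed were 10 and 8 against 0, and the interaction passed 18 and 12 windows against 0. With both left out, all 10 bins were higher in DDT sperm, where 8.11% of all bins were higher and 6.92% lower. The interaction was then higher in 0.137% and lower in 1.09% of tested windows, against 0.0994% and 0.221% of all. Leaving out any single library kept 0 windows and 0 bins for DDT against control in sperm and in morulae, and 0 windows for the interaction. No label says that replicate numbers pair the samples. Correlations of deviations between libraries of the same number were 0.219, 0.346 and -0.456 for DDT against control sperm. In the other comparisons they were -0.0116 to 0.0292. The sperm values include the libraries that stand apart and do not decide whether samples are paired. With a replicate block the control lineage had 211 higher (14.4%) and 134 lower windows (9.16%), against 14.2% and 10.9% of all. The DDT lineage had 219 (15.4%) and 369 (25.9%), against 21.3% and 21.6% of all. Both DDT comparisons had 0, against at most 4.07e-05% of all windows. Scaling by library size moved the median of all windows from 0.09 to 0.18 in the control and from -0.01 to 0.11 in the DDT lineage (log2). In the DDT lineage 235 windows (16.5%) were then higher and 236 (16.6%) lower, against 20.9% and 13.3% of all. In the control lineage 268 (18.3%) were higher and 122 (8.34%) lower, against 19.4% and 10.5% of all. By TMM library sizes the summed CPM of DDT morulae minus DDT sperm was -157.2, against -104.2 (exact permutation p = 0.0286, adjusted 0.114), that of control morulae minus control sperm -81.4, against -29.3, and that of DDT minus control morulae turned from -8.38 to 0.344. Of 42 named differences of morula over sperm 25 kept their call in every alternative in which the window could be tested. Some windows of low counts could not be tested in all of them. In at least 1 alternative 3 changed sign: the window at 216043001 in the control lineage (-0.0534 with the abundance offset, -0.0502 to 0.325 leaving out 1 library), that at 216044001 in the DDT lineage (-0.0337 to 0.567) and that at 216158001 in the control lineage (-1.15 to 0.119). None of these 3 passed the test. The cause of these changes was not tested.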
